A study of Mus musculus with 48 samples.

Results

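Metallothionein and corticosteroid response genes were followed in mouse enteroendocrine cells (EECs), the hormone-secreting cells of the gut epithelium. The group held 9 named genes of the 53465 listed in the count table. The members were Mt1 and Mt2, the corticosteroid receptor genes Nr3c1 and Nr3c2, the steroid-inactivating enzyme gene Hsd11b2, and the receptor target genes Fkbp5, Tsc22d3, Zbtb16 and Sgk1. They were chosen by name with their levels in weight-matched sham mice, against ad libitum sham and VSG mice, in view. Their values in comparisons of that group are therefore given as a description, with no p-value, a count of members past a threshold there was built into the choice, and tests were kept for gut region, for vertical sleeve gastrectomy (VSG) against ad libitum sham, and for differences of an effect between regions.

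RNA was sequenced from eYFP-positive cells sorted from Neurod1-cre-eYFP male mice on a C57BL6 background, a line in which Cre follows the Neurod1 gene, so the reporter marks any cell that has expressed Neurod1, and the sort left out debris, dead cells and CD45-positive immune cells. The duodenum sample was the top 5 cm of the small intestine, the ileum sample its bottom 15 cm, and the colon sample the large intestine with rectum. S_al mice had a sham operation and ate ad libitum, S_wm mice had the same sham operation and were given rationed meals that matched their weight to the VSG mice, and VSG mice lost about 70% of the stomach and received weekly vitamin B12. All 3 groups were about 20 weeks old at surgery, had a spell of liquid diet around the operation and then chow, and were killed 6 weeks later, after an overnight fast and about 15 min after gavage of 3 g/kg glucose. Each region had 5 S_al, 5 S_wm and 6 VSG libraries, 48 in all from 17 mice.

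Metallothioneins are small cysteine-rich proteins that bind zinc and copper, and their genes are classically induced by metals and by glucocorticoids. Glucocorticoids act through the glucocorticoid receptor, encoded by Nr3c1, and also bind the mineralocorticoid receptor, encoded by Nr3c2, unless the enzyme encoded by Hsd11b2 inactivates them first. In the distal colon, where aldosterone drives sodium uptake, that enzyme lets the mineralocorticoid receptor respond to aldosterone.

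Library totals ran from 4648651 to 17182463 counts with a median of 6713018, and all 9 members passed the filter on low counts along with 15126 genes in all. Levels are given as CPM, read counts divided by a TMM-scaled library size. All 14 EEC markers were detected in every group, and their summed level lay between 30200 and 101000 CPM in every library but 1. The exception, S_wm mouse 27 in the duodenum, had an EEC marker sum of 12400 CPM and an enterocyte marker sum of 64700 CPM, against a group median of 10100 CPM. Its Paneth marker sum of 3800 CPM and immune marker sum of 2040 CPM were also the highest of the 5. The main values that rest on this library are given with and without it, and so are the main ones that rest on VSG mouse 18. The Fkbp5 and Zbtb16 levels of mouse 18 stood apart. Its EEC marker sums, 67700 CPM in the duodenum, 85300 CPM in ileum and 67600 CPM in colon, were the highest of the VSG group in the ileum and colon.

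Mt1 lies on mouse chromosome 8 at chr8:94179082-94180327 of GRCm38 and Mt2 at chr8:94172664-94173568, both on the plus strand and 5513 bases apart. The promoters of these neighbours are shown because metal-responsive transcription of metallothioneins is known to run through short repeated elements near the start site. The RefSeq windows on GRCm38.p6 cover 250 bases before to 50 bases after the start, at chr8:94178839-94179138 for Mt1 and chr8:94172368-94172667 for Mt2, and capitals mark matches on either strand to the metal-response cores TGCACNC and TGCGCNC.
Mt1: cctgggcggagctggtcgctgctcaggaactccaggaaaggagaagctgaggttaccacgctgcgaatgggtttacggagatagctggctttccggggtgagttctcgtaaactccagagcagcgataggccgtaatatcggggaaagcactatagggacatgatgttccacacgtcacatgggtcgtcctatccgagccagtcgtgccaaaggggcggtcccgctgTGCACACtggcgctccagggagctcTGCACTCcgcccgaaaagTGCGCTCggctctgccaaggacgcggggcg
Mt2: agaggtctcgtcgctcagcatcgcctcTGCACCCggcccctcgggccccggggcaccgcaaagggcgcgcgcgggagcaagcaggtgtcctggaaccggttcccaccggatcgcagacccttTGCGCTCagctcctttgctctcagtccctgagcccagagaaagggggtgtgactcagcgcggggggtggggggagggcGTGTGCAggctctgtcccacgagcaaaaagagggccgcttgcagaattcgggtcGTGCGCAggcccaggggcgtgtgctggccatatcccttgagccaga
Mt1 held 3 matches and Mt2 held 4. Of 32851 mouse promoter windows of the same length, 25.7% held at least 1 match, 1.97% at least 3 and 0.517% at least 4. The cores do not overlap each other in these windows, and a match is a description of the letters only.

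Both metallothionein genes were lowest in the S_wm and VSG mice and highest in S_al mice, in every region by the group mean. In the ileum, Mt1 stood at 59.5, 66.5, 80.6, 82.5 and 90.9 CPM in the 5 S_al mice and at 33.9, 38.3, 41.1, 43.5 and 54.1 CPM in the 5 S_wm mice. The groups did not overlap, and the 6 VSG mice, with a lowest value of 28.9, a median of 44.6 and a highest of 67.7 CPM, spanned the gap between them. Mt2 in the ileum stood at 12.5, 13.5, 21.2, 22.5 and 24.3 CPM in S_al and at 4.32, 5.26, 7.85, 8.80 and 10.5 CPM in S_wm. Here too every S_wm mouse lay below every S_al mouse, and 5 of 6 VSG mice lay below all S_al mice, with a median of 7.59 CPM and a range of 2.93 to 14.9 CPM. Among all genes tested, 1.51% had S_wm and S_al groups that did not overlap in the ileum, 0.688% with S_wm lower. These Mt2 levels rest on 27 to 74 reads in each S_wm library and 72 to 172 in each S_al library, so counting error is larger for Mt2 than for Mt1. Paneth marker sums in the ileum were 1750 to 12000 CPM with a median of 4200 in S_al, 1790 to 2890 with a median of 2170 in S_wm and 1140 to 3620 with a median of 1820 in VSG, and crypt and cycling marker sums had medians of 3180, 2310 and 2730 CPM. The part of these markers, all detected in each group, in the metallothionein levels was not tested.

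In the duodenum the same order held with 1 exception. Mt1 stood at 34.4, 40.9, 44.3, 55.4 and 62.8 CPM in S_al and at 17.4, 18.4, 28.2 and 30.2 CPM in 4 S_wm mice, while mouse 27 reached 71.7 CPM. Without that library the S_wm mean fell from 33.2 ± 22.3 (SD, n = 5) to 23.6 ± 6.57 CPM (SD, n = 4), against 47.6 ± 11.4 CPM (SD, n = 5) in S_al. Mt2 stood at 12.1, 12.2, 16.7, 21.6 and 25.4 CPM in S_al and at 2.74, 3.62, 7.79, 11 and 13.4 CPM in S_wm, so that 4 of 5 S_wm mice were below all S_al mice. The 13.4 CPM was that of mouse 27. Without its library the S_wm mean of Mt2 fell from 7.72 ± 4.62 (SD, n = 5) to 6.29 ± 3.85 CPM (SD, n = 4). VSG mice had a median of 28 CPM for Mt1 and 7.58 CPM for Mt2, and 5 of 6 were below all S_al mice for each gene. In the colon the groups overlapped. Mt1 averaged 173 ± 34.8 CPM (SD, n = 5) in S_al, 131 ± 15 CPM (SD, n = 5) in S_wm and 152 ± 35 CPM (SD, n = 6) in VSG, and Mt2 averaged 45.2 ± 14.3, 28.7 ± 6.13 and 38.1 ± 10.6 CPM in the same order.

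**Figure D1:**
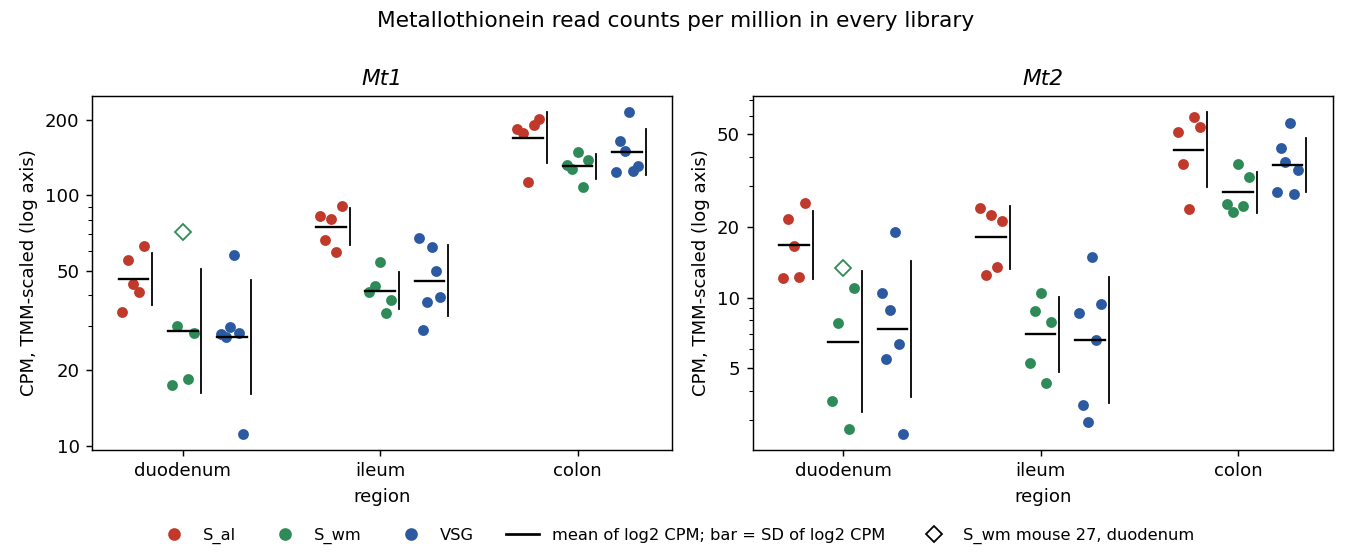
Every library's level of Mt1 (left) and Mt2 (right), in TMM-scaled CPM on a log axis, by region and condition; lines are means of log2 CPM and bars their SD. S_al points sit above S_wm points in the ileum for both genes, the open diamond is the duodenum library of S_wm mouse 27, and colon levels lie above those of both small intestinal regions.

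Averaged over the 3 regions, the log2 fold change of S_wm against S_al was −0.59 (SE 0.165) for Mt1 and −1.06 (SE 0.222) for Mt2, the latter 0.479 times the S_al level. With mouse 27 left out entirely the values were −0.80 for Mt1 and −1.25 for Mt2. This comparison chose the genes, so that 2 of 9 members lay past the 5% false discovery rate, Mt2 as lower and Nr3c2 as higher, against 0.0529% of all genes, 0.0331% as higher and 0.0198% as lower, is no test of them. The count was 0 of 9 in limma voom with the mouse as a replicate block, where the values were −1.10 for Mt2 and 0.59 for Nr3c2, and when counts were summed per mouse, at −0.86 and 0.59. It was also 0 without any 1 of mice 12, 13, 16, 19, 21, 22, 24 and 28, and Mt2 was lost without mouse 11, 17, 29, 31 or 32 and Nr3c2 without mouse 25, 27 or 30, with values from −1.25 to −0.93 for Mt2 and from 0.42 to 0.73 for Nr3c2. Within single regions 0 of 9 members passed against S_al, where 0% of genes passed in the duodenum, 0% in ileum and 0.0132% in colon, and 0 of 9 passed against VSG, where 0.225%, 0.0463% and 0.0595% did. Averaged over the regions, the S_wm and VSG libraries differed by −0.08 (SE 0.158) for Mt1 and −0.19 (SE 0.217) for Mt2 on the log2 scale, and both turned without VSG mouse 25, to 0.08 and 0.07. VSG against S_al, a comparison not used to choose the genes but one that shares the S_al libraries, gave −0.51 (SE 0.157) for Mt1 with an adjusted p = 0.486 and −0.87 (SE 0.210) for Mt2 with an adjusted p = 0.178 in edgeR's quasi-likelihood test. No member passed there, and the background was 0% of 15126 genes, with 837 at an unadjusted p under 0.05 and 26 past the threshold in DESeq2. Mt2 was 1 of those 26, at a DESeq2 adjusted p = 0.0296, and it also passed in edgeR without VSG mouse 25 at an adjusted p = 0.014. Mouse 25 had the highest Mt2 of the VSG group in all 3 regions, 19 CPM in the duodenum, 14.9 CPM in ileum and 55.8 CPM in colon.

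Some limits bear on the metallothionein counts. The genes are close paralogs, and how reads that match both were handled is not given in the sources used here. Of Mt2, 432 exonic bases are shared with the opposite-strand gene Gm45774, which held 74 counts over all libraries against 6604 for Mt2. The strand setting of the count is not given either. In sorted bulk samples such as these, fewer cells of a type and less RNA per cell cannot be told apart.

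Nr3c1 and Nr3c2 gave opposite pictures. The glucocorticoid receptor gene had close group means in the 3 conditions, of 140 to 157 CPM in the duodenum, 140 to 166 CPM in ileum and 96 to 99.7 CPM in colon. Its log2 fold change over the 3 regions was −0.05 (SE 0.0701) for S_wm against S_al and 0.07 (SE 0.0671) for S_wm against VSG. The mineralocorticoid receptor gene was higher in S_wm mice than in both other groups in the small intestine. In the ileum Nr3c2 stood at 44.5, 45.3, 46.4, 48 and 48.5 CPM in S_wm, above all 5 S_al mice at 23.5, 25.4, 28.6, 37.1 and 41 CPM and above all 6 VSG mice, which ran from 24.9 through a median of 33.5 to 43.1 CPM. The S_wm values lay close together. In the ileum S_wm lay above VSG without overlap for 0.245% of all genes tested and below for 0.304%, 0.549% in all, and above S_al for 0.82%.

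In the duodenum Nr3c2 stood at 31.6, 33.6, 38, 38.8 and 113 CPM in S_wm and at 21.5, 24, 25, 28.1 and 30.2 CPM in S_al. All S_wm mice were above all S_al mice, as was so for 0.205% of genes, with 0.291% below and 0.496% in either direction, and the 113 CPM was that of mouse 27. The VSG mice lay between 26.8 and 31.9 CPM, overlapping S_wm at a single mouse. In the colon the groups overlapped, with means of 88.9 ± 26.4 CPM (SD, n = 5) in S_wm, 68.8 ± 19 CPM (SD, n = 5) in S_al and 87.8 ± 17.1 CPM (SD, n = 6) in VSG.

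The log2 fold change of Nr3c2 over the 3 regions was 0.64 (SE 0.134) for S_wm against S_al and 0.44 (SE 0.127) for S_wm against VSG, and VSG against S_al gave 0.20 with an adjusted p = 0.989 in edgeR. Without the duodenum library of mouse 27 the first 2 became 0.47 and 0.28. With mouse 27 left out entirely they were 0.42 and 0.23. Enterocyte marker sums overlapped between the conditions in the ileum. They were 8880 to 17700 CPM in S_al, 9470 to 22100 CPM in S_wm and 6520 to 21900 CPM in VSG. Their ileum medians were 15200, 19200 and 13200 CPM in the same order, and those of colonocyte marker sums 1760, 2460 and 2030 CPM. In the duodenum the enterocyte medians were 10600, 10100 and 9270 CPM, and the colonocyte medians 1120, 1160 and 1110 CPM. The mouse 27 duodenum library, at 64700 CPM of enterocyte markers, also had the highest Nr3c2 there. The part of these markers in the Nr3c2 levels was not tested.

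**Figure D2:**
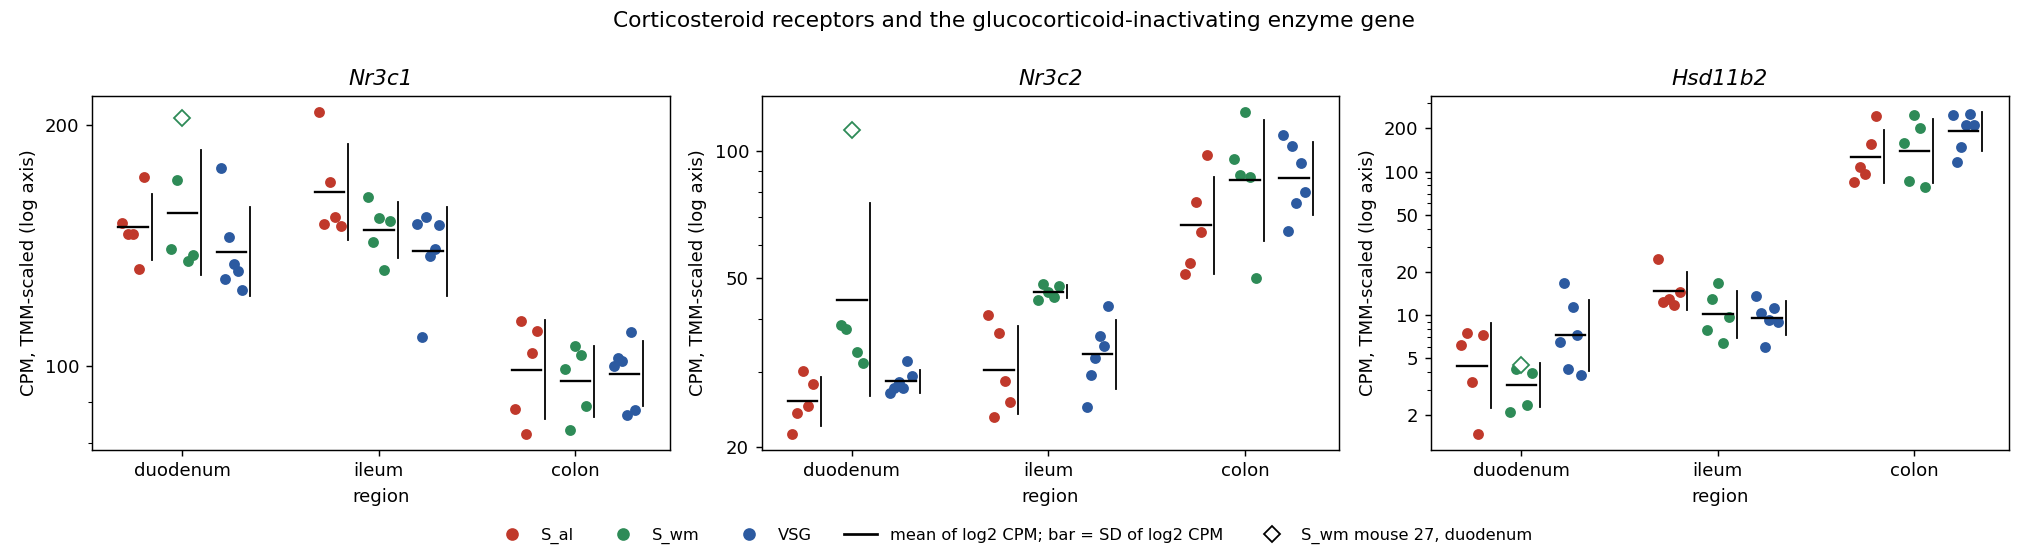
Levels of Nr3c1, Nr3c2 and Hsd11b2 in every library, in TMM-scaled CPM on a log axis, by region and condition; lines are means of log2 CPM and bars their SD. The 5 S_wm points of Nr3c2 in the ileum, at 44.5 to 48.5 CPM, lie above all points of the other groups, and Hsd11b2 in the colon lies far above its small intestinal levels.

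The corticosteroid and metallothionein genes differed widely by gut region. Colon against duodenum, 4 of 9 members rose and 2 fell past the threshold in edgeR, where 26.8% of all genes rose and 28.3% fell, 55% in all, so a share of this size is near the background. Hsd11b2 had the largest difference of the 9. It stood at 1.49 to 16.8 CPM with a median of 4.34 CPM in the 16 duodenum libraries, at 6.00 to 24.7 CPM with a median of 11.5 CPM in the ileum and at 77.4 to 250 CPM with a median of 158 CPM in the colon. Colon exceeded duodenum by a log2 fold change of 4.90 (SE 0.235), 29.9-fold, at an edgeR adjusted p = 7.55e-22. It exceeded ileum by 3.77 (SE 0.220), 13.6-fold, at an edgeR adjusted p = 1.21e-18.

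Nr3c2 moved the same way and Nr3c1 the other way. Nr3c2 was 2.43-fold higher in colon than in duodenum (log2 1.28, SE 0.131, adjusted p = 8.62e-12) and 2.23-fold higher than in ileum at an adjusted p = 2.33e-10, while ileum against duodenum gave 0.12 with an adjusted p = 0.514, and 0.29 with an edgeR adjusted p = 0.0153 without the mouse 27 duodenum library. Nr3c1 fell by 0.60 (SE 0.0684) on the log2 scale from duodenum to colon at an adjusted p = 1.26e-10 and by 0.63 from ileum to colon at an adjusted p = 7.29e-11, all by edgeR. Scaled by exon length of the protein-coding transcripts, Nr3c1 averaged 19.3 CPM per kb in the duodenum against 5.47 for Nr3c2, and in the colon 12.7 against 13 CPM per kb. The levels of both receptor transcripts per length were thus alike in the colon, with ranges of 10.7 to 14.8 for Nr3c1 and 7.90 to 19.5 for Nr3c2. They did not overlap in the ileum, at 14.1 to 27 against 3.71 to 7.65 CPM per kb. In the duodenum they overlapped, at 16.2 to 26.6 against 3.39 to 17.8 CPM per kb. The 17.8 was that of the mouse 27 library, which also enters the duodenum mean of Nr3c2.

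The metallothioneins were also highest in the colon. Mt1 rose 4.16-fold from duodenum to colon (log2 2.06, SE 0.165, adjusted p = 1.16e-14) and Mt2 3.45-fold (log2 1.79, SE 0.216, adjusted p = 1.36e-09). From duodenum to ileum Mt1 rose by 0.56 at an adjusted p = 0.00605, while the Mt2 value was −0.07 at an adjusted p = 0.835. In that comparison 3 of 9 members passed, with Hsd11b2 higher by 1.13 (adjusted p = 8.62e-05) and Zbtb16 lower, against 33.8% of all genes, 17.2% as higher and 16.6% as lower. From ileum to colon 4 of 9 were higher and 1 lower, against 49.2% of genes, 23.8% as higher and 25.4% as lower. With the mouse as a fixed replicate block in edgeR, Fkbp5 also passed there, at 0.31 (adjusted p = 0.00947).

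Among the 4 target genes Zbtb16 passed by region. Zbtb16, a zinc-finger transcription factor gene that is among the strongest glucocorticoid-induced genes in many cells, fell by 1.54 (SE 0.411) on the log2 scale from duodenum to colon at an adjusted p = 0.00146 and by 1.37 from duodenum to ileum at an adjusted p = 0.00885. Fkbp5, which encodes a chaperone partner that lowers receptor affinity for hormone, gave 0.33 from duodenum to colon at an adjusted p = 0.0786, and it passed with the mouse as a replicate block at an adjusted p = 0.0196 in limma voom and 0.00171 in edgeR. Tsc22d3, the gene of the leucine zipper protein GILZ, gave −0.33 at an adjusted p = 0.0506 in edgeR and −0.40 at 0.00915 in the voom fit with the mouse block, but 0.082 in the edgeR fit with it. Sgk1, a kinase gene induced by both receptors that keeps sodium channels at the cell surface, gave 0.26 at an adjusted p = 0.475. Without the mouse 27 duodenum library Sgk1 passed in edgeR, at 0.78 from duodenum to colon (adjusted p = 0.00299) and 0.76 from duodenum to ileum (adjusted p = 0.00625). Without mouse 18, Fkbp5 passed at 0.43 from duodenum to colon (edgeR adjusted p = 0.00132) and 0.39 from ileum to colon (adjusted p = 0.00378), and Tsc22d3 from duodenum to colon passed without any 1 of mice 19, 21, 24, 29, 30 and 32, at −0.40 to −0.35, but was −0.22 (edgeR adjusted p = 0.179) without the mouse 27 duodenum library.

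The library index written last in the sample titles, D501 to D504, partly followed region. Region contrasts shifted when it was added as a covariate. The other index in the titles was not examined. Index D502 occurred only in the duodenum, where the only libraries with another index, D501, were S_al mice 12, 13 and 32 and S_wm mouse 27. All VSG duodenum libraries had D502. Index-adjusted duodenum values therefore hang on those D501 libraries, the mouse 27 library among them. Colon against duodenum then stayed past the threshold for Hsd11b2 at 3.77, Mt1 at 1.40 and Nr3c1 at −0.99, no longer passed for Mt2 at 1.19 (edgeR adjusted p = 0.0547) or Nr3c2 at 0.59 (adjusted p = 0.0883), and turned for Zbtb16 to 0.25 (adjusted p = 0.888), while Fkbp5 passed at 1.01 (adjusted p = 0.0492). No ileum against duodenum call stayed, with Mt1 at −0.06, Zbtb16 at 0.03 and Hsd11b2 at 0.16, while all 5 colon against ileum calls stayed. Colonocyte marker sums also moved with region, from 967 to 3690 CPM in the duodenum and 1480 to 2950 CPM in the ileum to 2480 to 4220 CPM in the colon, and goblet marker sums rose to as much as 14100 CPM there. Group medians of enterocyte marker sums were 9270 to 10600 CPM in the duodenum, 13200 to 19200 CPM in the ileum and 1350 to 1380 CPM in the colon. Those of Paneth marker sums were 232 to 639, 1820 to 4200 and 16 to 35.5 CPM. The part of any of these markers in the region differences was not tested.

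The 4 receptor target genes showed no shared difference in S_wm mice. Against S_al the log2 fold change over the 3 regions was 0.06 (SE 0.167) for Fkbp5, −0.10 (SE 0.149) for Tsc22d3, 0.44 (SE 0.438) for Zbtb16 and 0.21 (SE 0.299) for Sgk1. Against VSG the values were −0.50 (SE 0.161) for Fkbp5, 0.00 (SE 0.147) for Tsc22d3, −0.78 (SE 0.402) for Zbtb16 and 0.15 (SE 0.286) for Sgk1. As in the S_al comparison the count against VSG, 0 of 9 members where 0.245% of all genes passed, is no test. Against VSG the Sgk1 value turned to −0.35 without the mouse 27 duodenum library.

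**Figure D3:**
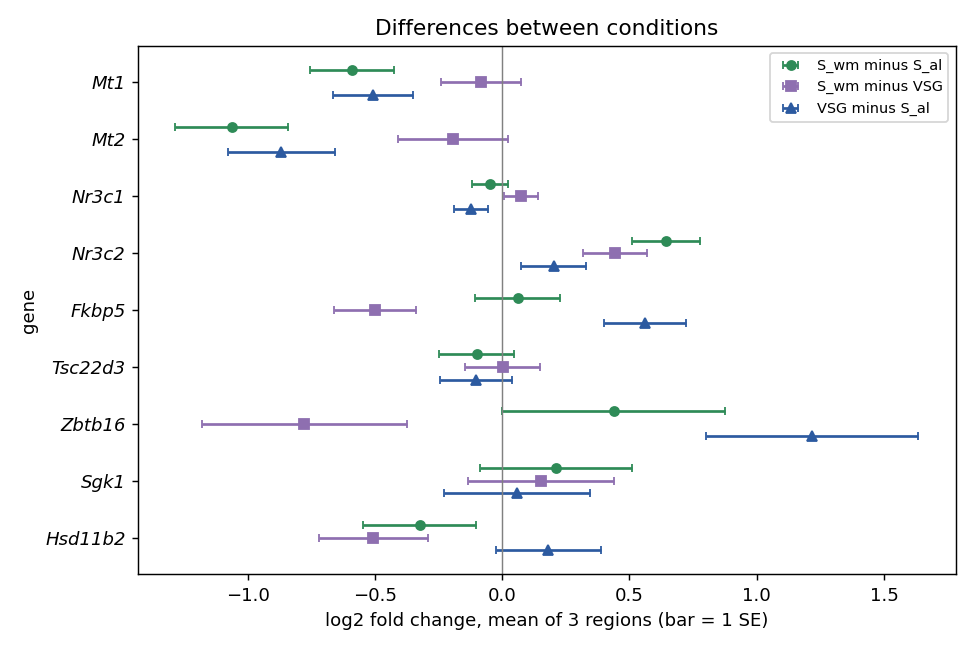
Log2 fold change of the 9 genes, averaged over the 3 regions, for S_wm minus S_al (circles), S_wm minus VSG (squares) and VSG minus S_al (triangles); bars are 1 SE. Mt1 and Mt2 lie below 0 against S_al in both S_wm and VSG mice, and Nr3c2 lies above 0 in S_wm against either group; the 3 comparisons share libraries.

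A single VSG animal, mouse 18, stood apart for Fkbp5 and Zbtb16. Its Fkbp5 was 164 CPM in the duodenum, where the other 5 VSG mice had 47 to 67.2 CPM, and 174 CPM in the ileum, where they had 44.1 to 75.4 CPM. In the colon it was again the highest of the group at 110 CPM, but next to a mouse at 99.9 CPM. Zbtb16 in the same mouse was 58.3 CPM in the duodenum against 3.53 to 8.69 CPM in the others, and 41.8 CPM in the ileum against 0.744 to 3.26 CPM. In the colon its Zbtb16, at 4.68 CPM, lay inside the range of the group. Nr3c1 in this mouse was 109 CPM in the ileum, the lowest of the VSG group, whose other members had 137 to 154 CPM.

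VSG against S_al gave 0.56 (SE 0.161) for Fkbp5 with an adjusted p = 0.332 and 1.22 (SE 0.418) for Zbtb16 with an adjusted p = 0.655 in edgeR. Without mouse 18 these became 0.26 (adjusted p = 0.782) and 0.05 (adjusted p = 0.992), and the S_wm against VSG difference moved from −0.50 to −0.19 for Fkbp5 and from −0.78 to 0.41 for Zbtb16. In the colon, where mouse 18 was least apart, Fkbp5 averaged 87 ± 17.2 CPM (SD, n = 6) in VSG, 63.8 ± 17.6 CPM (SD, n = 5) in S_al and 68.4 ± 17.9 CPM (SD, n = 5) in S_wm. VSG against S_al for Tsc22d3, Sgk1, Hsd11b2 and Nr3c1 gave −0.10, 0.06, 0.18 and −0.12, at adjusted p-values of 1, 1, 1 and 0.921.

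The other library that stood apart was the mouse 27 duodenum sample. Its Sgk1 was 161 CPM, where the other 4 S_wm mice had 8.82, 16.8, 17.7 and 18.4 CPM, and its Tsc22d3 was 33.2 CPM, where they had 13.8 to 17 CPM. Its Fkbp5, at 23.4 CPM, was the lowest of the 48 libraries. S_al duodenum Sgk1 stood at 21, 26, 26.9, 28.6 and 45 CPM. The duodenum log2 fold change of S_wm against S_al was accordingly 0.59 (SE 0.515) with mouse 27 and −0.93 without it, and over the 3 regions 0.21 and −0.30. In the mouse 27 library markers of enterocytes, Paneth cells and immune cells were also high, although the sort left out CD45-positive cells, and their part in its values was not tested.

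**Figure D4:**
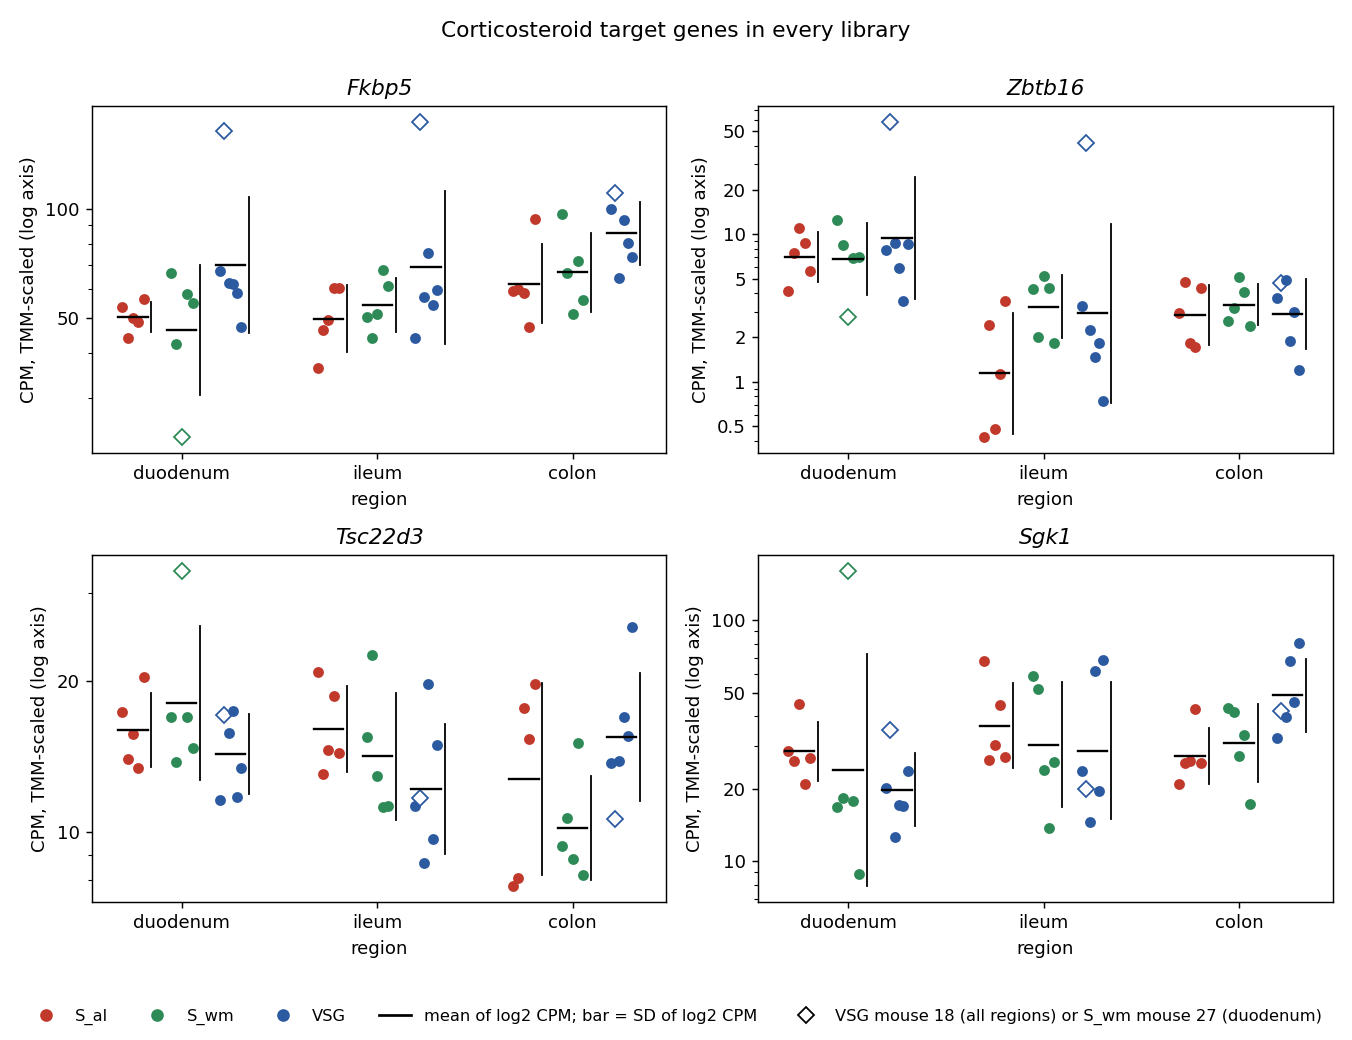
Levels of Fkbp5, Zbtb16, Tsc22d3 and Sgk1 in every library, in TMM-scaled CPM on a log axis, by region and condition; lines are means of log2 CPM and bars their SD. Open diamonds mark VSG mouse 18, highest for Fkbp5 in each region and for Zbtb16 in the duodenum and ileum, and the duodenum library of S_wm mouse 27, highest for Sgk1 and Tsc22d3 and lowest for Fkbp5.

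Hsd11b2 was lower in S_wm than in the other groups in the duodenum by the means, at 3.42 ± 1.10 CPM (SD, n = 5) against 5.18 ± 2.63 CPM (SD, n = 5) in S_al and 8.31 ± 4.96 CPM (SD, n = 6) in VSG, with ranges that overlapped. Over the 3 regions the log2 fold change was −0.33 (SE 0.221) against S_al and −0.51 (SE 0.213) against VSG. With mouse 27 left out entirely these were −0.51 and −0.69. In the colon, where the gene was abundant, S_wm mice ran from 77.4 to 247 CPM, S_al mice from 84.6 to 243 CPM and VSG mice from 116 to 250 CPM. The groups overlapped, with 2 S_wm mice below all VSG mice, and without mouse 18 the VSG mice ran from 148 to 250 CPM.

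No effect of condition on a member was shown to differ between regions. In the joint edgeR test of the difference between regions, 0 of 9 members passed in any of the 3 comparisons, and the background was 0% of 15126 genes in each. In S_wm against VSG the log2 values of Tsc22d3 were 0.40 in duodenum, 0.23 in ileum and −0.62 in colon, and those of Nr3c2 0.83, 0.48 and 0.02, each with an edgeR adjusted p = 1 for the difference between regions. Without the mouse 27 library the duodenum values were 0.11 for Tsc22d3 and 0.32 for Nr3c2.

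**Figure D5:**
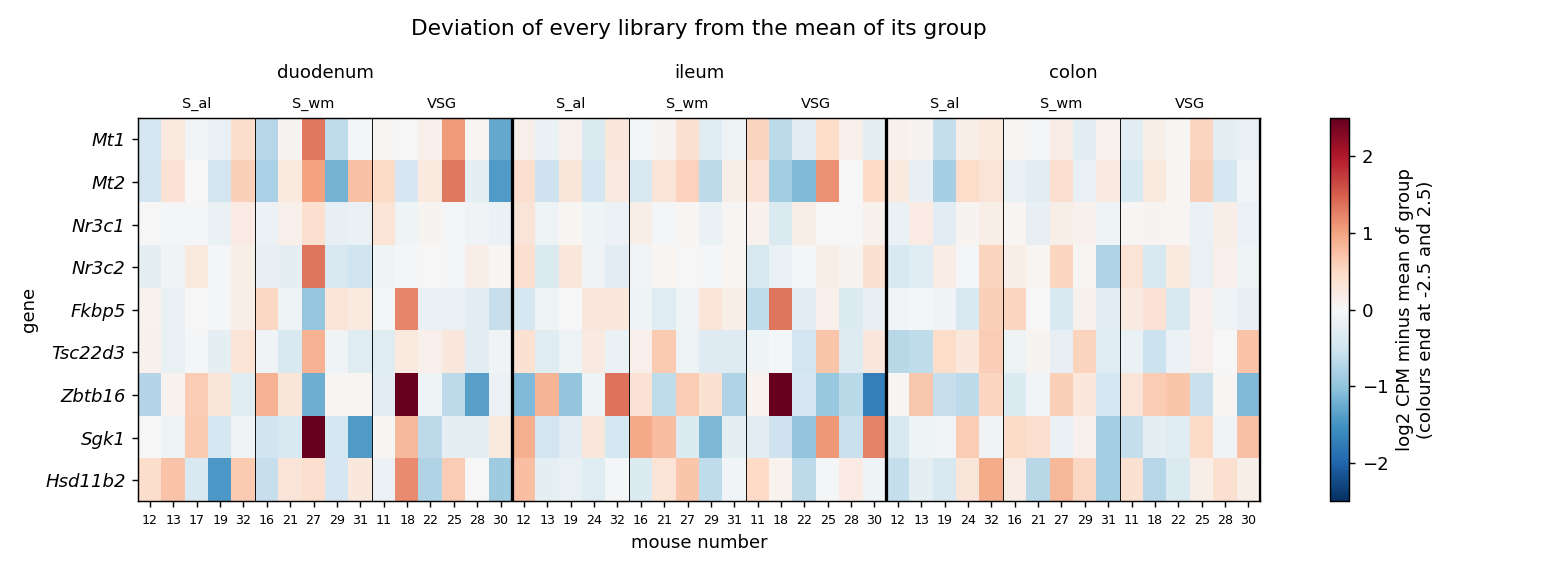
Difference of every library's log2 CPM from the mean of its own region and condition, for the 9 genes (rows) and 48 libraries (columns, labelled by mouse number); colours saturate at the ends of the scale. The darkest cells are Zbtb16 in VSG mouse 18 (2.58 in the duodenum, 3.66 in the ileum) and Sgk1 in S_wm mouse 27 (2.73 in the duodenum).

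Across the 48 libraries, after each region's mean was removed, Mt1 and Mt2 were each other's nearest gene by level among 13938 genes, at Pearson r = 0.901, with the next gene at 0.651 for Mt1 (Serinc3) and 0.604 for Mt2 (the zinc transporter gene Slc30a6). Nr3c2 was nearest to Mertk at 0.871, Zzef1 at 0.837 and Papss2 at 0.833. Fkbp5 and Zbtb16 were among each other's 3 nearest genes at 0.632, as was Sgk1 for Tsc22d3 at 0.681. The nearest genes to Sgk1 were Vav2 and P2ry2, both at 0.765, to Nr3c1 Eif2ak1 at 0.702 and to Hsd11b2 Mgat4b at 0.677. Libraries of 1 mouse share an animal and the mouse 27 and mouse 18 libraries enter these values, so they are a description only.

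Other genes of the same pathways gave little difference between conditions. Of 35 tested glucocorticoid target genes beyond the members, 0 passed in S_wm against S_al, with a median log2 fold change of −0.02 against 0.01 for all genes, and 15 of 35 were positive. The largest value was that of Angptl4, a lipoprotein lipase inhibitor gene, at −1.17 (SE 0.329, edgeR adjusted p = 0.475). Its duodenum level was 17.2 ± 4.87 CPM (SD, n = 5) in S_al and 6.41 ± 1.17 CPM (SD, n = 5) in S_wm. All S_wm mice, at 4.60 to 7.37 CPM, lay below the S_al range of 12.8 to 25.3 CPM, as was so for 0.291% of all genes. VSG duodenum libraries were also low, at 5.96 to 12.7 CPM with a mean of 8.68 CPM. In S_wm against VSG 1 of 35 passed, where 0.245% of all genes did. It was Lcn2, the gene of the iron-binding defence protein lipocalin 2, at a log2 fold change of −2.87 (SE 0.67, adjusted p = 0.0436), but its levels rest on few reads, 10 over the 5 S_wm ileum libraries and 145 over the 6 VSG ones. In VSG against S_al 0 of 35 passed.

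Of 33 zinc transporters and metal regulators, 0 passed in either S_wm comparison and 23 of 33 were positive against S_al, with a median of 0.10. The largest value was that of the iron exporter gene Slc40a1, at 1.10 (SE 0.316, edgeR adjusted p = 0.489), whose S_wm duodenum levels were 30.1, 41.4, 55.1 and 56 CPM in 4 mice and 685 CPM in mouse 27. Without that library the Slc40a1 value was 0.46 (SE 0.188, edgeR adjusted p = 0.726). Of 18 aldosterone and sodium transport genes, 0 passed in any condition comparison, with medians of 0.14 against S_al and 0.13 against VSG. Among them the largest fitted value belonged to the sodium channel gene Scnn1b, which had 0 counts in all 16 duodenum libraries, so a mean over the 3 regions could not be fitted for it. Of 19 receptor chaperones and coregulators and 18 oxidative stress genes, 0 passed in S_wm against S_al or VSG. The largest values were those of the heat shock gene Hspa1b, at −0.86 against S_al and −1.71 against VSG (adjusted p = 0.0833), of the heme oxygenase gene Hmox1, at 0.75 against S_al, and of the glutathione peroxidase gene Gpx2, at −0.42 against VSG. Only 5 of 15 listed corticosteroid synthesis and export genes were expressed enough to be tested and 0 passed, the steroid exporter gene Abcb1a having the largest values at 0.47 and 0.50.

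By region, the sodium transport list had 10 of 18 higher and 2 lower in colon than in duodenum, where 26.8% of all genes were higher and 28.3% lower. Scnn1b had 0 counts in the duodenum, 8 in ileum and 925 in colon over 16 libraries each, and averaged 9.19 CPM in the colon. Fxyd4, a sodium pump regulator gene, had 139 counts in the colon and 0 in both other regions. Glucocorticoid targets went both ways, with 10 higher and 15 lower of 35, led by Sult1a1 at 7.76 and Anxa1 at 6.70 on the log2 scale. Zinc and metal genes gave 7 higher and 11 lower of 33, led by the zinc transporter gene Slc30a2 at −3.26 and the copper pump gene Atp7b at −2.33. Chaperones and coregulators gave 4 higher and 9 lower of 19, with Hsp90aa1 at −0.63 and Bag1 at 0.60. Oxidative stress genes gave 2 higher and 4 lower of 18, with Hmox1 at 2.25 and catalase (Cat) at −1.38, and synthesis genes 2 and 2 of 5, with Nr5a2 at 2.09 and Star at −1.24.

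RefSeq promoter windows were used for 6 of the 9 members. Member windows on chromosome 18, where Nr3c1 lies, were left out. No such rule was applied to the 32851 windows of the background. The receptor-binding hexamer AGAACA occurs on either strand in 19% of the 32851 windows, and it was found at 1 of 3 start sites of Tsc22d3 and 3 of 6 of Sgk1, with none at Mt1, Mt2, Nr3c2 or Fkbp5. Only 250 bases before to 50 bases after a start were searched, so sites farther away would be missed. A full palindrome, this hexamer followed after 3 unspecified bases by its reverse complement, was found in 3 of all windows, and 1 of these was a start site of Sgk1, at chr10:21993640-21993939.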

How the data were processed

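The authors sequenced total RNA of sorted cells with a stranded kit, aligned reads to GRCm38 with STAR 2.5.1 and deposited gene counts, which are raw whole numbers for 53465 genes in 48 libraries. The strand setting of the count is not given in the sources used here. Totals of 4648651 to 17182463 counts set the precision, and counting error is largest for Mt2, Zbtb16 and Hsd11b2 in the small intestine. Symbols were matched for 53274 gene IDs.

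Samples were grouped by the condition and tissue in their labels, with mice as replicates within each group. For mouse 12 the codes of the ileum and colon libraries were crossed against the tissue label, and the tissue label was used. Mouse 17 gave only a duodenum library and mouse 24 only ileum and colon. Genes passing edgeR's filterByExpr (15126) were TMM-scaled and fitted over 9 groups of condition and region with edgeR 4.0.16 quasi-likelihood (robust) in R 4.3.3. Contrasts were averaged over regions or conditions or taken within a region, and p-values were adjusted over all genes tested by Benjamini-Hochberg at 0.05. SEs were derived from the fold change and the F statistic. The fit was tested on simulated data with known fold changes. These were drawn independently for each library, so the pairing by mouse and the index were not part of that test. Libraries of a mouse came from the same animal, which pairs them, and over 46 same-mouse pairs the median correlation of deviations from group means was 0.105 across 2000 genes. The main fit had no mouse term, so its SEs and p-values for averages over regions treat these libraries as independent. Across mice, Mt1 deviations correlated at 0.492 (duodenum, ileum), 0.563 (duodenum, colon) and 0.0682 (ileum, colon). In the same order Mt2 gave 0.376, 0.465 and 0.129, Fkbp5 0.669, 0.646 and 0.286, and Nr3c2 −0.0454, 0.585 and −0.259. No libraries were near-duplicates over 105 pairs.

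The members and the pathway and marker lists were chosen with earlier results of these data known. Comparisons of S_wm that chose the members carry no p-value for the members, and p-values there are given only for other list genes. Named list genes were those past the threshold in an S_wm comparison, or otherwise the gene of largest absolute change averaging at least 1 CPM, and the 2 largest called colon against duodenum changes. Likeness was Pearson's r of log2 CPM (prior count 2) after subtraction of region means, and the 3 highest genes were kept. Alternatives were DESeq2 1.42.0 and its size factors, no filter or at least 10 counts, voom in limma 3.58.1 with a random replicate block for each mouse, edgeR with that block for regions, counts summed per mouse, only the libraries compared, each mouse left out, and libraries of doubt left out. An index covariate and the joint omission of mice 18 and 27 were chosen after seeing the data.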

Additional observations from a re-analysis of the deposited data

Results flagged for a closer look

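In 13 of 81 groups of 5 or 6 libraries the highest or lowest library lay farther from its neighbour than Dixon's 95% critical value allows. Chance alone flags about 1 group in 20 where values are normally distributed and groups independent. Here the ratio was taken on CPM without a log and the genes share libraries, so that rate is no measure of excess. The S_wm mouse 27 duodenum library was the highest of its group for Mt1 at 71.7 CPM (next 30.2), Nr3c2 at 113 CPM (next 38.8), Tsc22d3 at 33.2 CPM (next 17) and Sgk1 at 161 CPM (next 18.4). VSG mouse 18 was the highest for Fkbp5 at 164 CPM in the duodenum and 174 CPM in the ileum, and for Zbtb16 at 58.3 CPM in the duodenum and 41.8 CPM in the ileum, and the lowest for Nr3c1 in the ileum at 109 CPM (next 137). Among S_al mice, mouse 19 was lowest for colon Mt1 at 113 CPM (next 178), mouse 32 highest for colon Fkbp5 at 93.8 CPM (next 60.0), mouse 24 highest for colon Sgk1 at 42.8 CPM (next 26) and mouse 12 highest for ileum Hsd11b2 at 24.7 CPM (next 14.4).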

How the results depend on the processing

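Over the alternatives other than leaving out 1 mouse, 1247 of 1350 member fold changes kept direction and call, the direction turned in 71 and the call changed in 35. The cause was not tested. Among the S_wm comparisons, without mice 18 and 27 Zbtb16 against VSG went from −0.778 to 0.331, and without the mouse 27 duodenum library the duodenum values went from 0.589 to −0.931 for Sgk1 against S_al and from 0.134 to −0.348 for Mt1 against VSG.

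With the index covariate, VSG against S_al turned to 0.0214 for Tsc22d3 over the 3 regions and in the duodenum to 0.0823 for Nr3c1, 0.206 for Tsc22d3 and 0.168 for Sgk1. All VSG duodenum libraries shared an index, which only part of the S_al ones had, so index and condition are partly confounded there. Ileum against duodenum turned to −0.0563 for Mt1, −0.254 for Nr3c1, −0.433 for Nr3c2, 0.0308 for Zbtb16 and −0.586 for Sgk1, colon against duodenum to 0.253 for Zbtb16 and −0.779 for Sgk1, and colon against ileum to 0.222 for Zbtb16 and −0.194 for Sgk1. Without mice 18 and 27 together, Zbtb16 in VSG against S_al turned to −0.102 in the duodenum and −0.0498 in the colon, Fkbp5 in ileum against duodenum to −0.00857, and colon against ileum to 0.508 for Zbtb16 and −0.0366 for Sgk1. With the mouse as a replicate block, Zbtb16 in colon against ileum was 0.241 in both fits and Sgk1 in VSG against S_al −0.0786. Without mouse 12's crossed libraries Sgk1 in VSG against S_al in the ileum was 0.0925 and Nr3c1 in ileum against duodenum −0.0105, the latter −0.00308 with no filter, where Sgk1 in colon against ileum was −0.00255. Mt2 in ileum against duodenum was 0.0179 without the mouse 27 duodenum library.

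Leaving out 1 mouse turned the direction of 35 of 135 member results, large ones included. Zbtb16 in S_wm against VSG in the ileum ran from −1.59 to 0.858, and Sgk1 in the duodenum from −0.438 to 1.34 against VSG and from −0.93 to 0.851 against S_al. In VSG against S_al the range was −0.121 to 0.169 for Sgk1 over the regions, −0.518 to 0.0929 for Sgk1 in the ileum, −0.0846 to 0.0299 for Nr3c1 in the colon, −0.107 to 1.27 for Zbtb16 in the duodenum and −0.0678 to 0.319 in the colon. It was −0.00959 to 0.0538 for Nr3c1 in ileum against duodenum, and in colon against ileum −0.291 to 0.517 for Zbtb16 and −0.067 to 0.133 for Sgk1.

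Counts of genes past the threshold moved more. For S_wm against S_al over the regions, 8 became 5 with no filter, 5 without mice 18 and 27, 13 in DESeq2, 4 with the replicate block and 0 summed per mouse, and 2 to 9 leaving out a mouse. For S_wm against VSG, 37 became 24, 57, 102, 9 and 5 in the same order, and 19 to 40. For VSG against S_al, 0 became 6 without the mouse 27 duodenum library, 4 with the index, 2 without mice 18 and 27 and 26 in DESeq2, and 0 to 6. In the duodenum, S_wm against S_al (0) gave 263 with the index, 3 in DESeq2 and 0 to 2. S_wm against VSG (34) gave 71 with DESeq2 size factors, 9 with no filter, 76 with at least 10 counts, 216 in DESeq2, 5 with the replicate block, and 0 without the mouse 27 library, with the index, without mice 18 and 27 and on only the libraries compared, and 0 to 226. VSG against S_al (0) gave 2 without mice 18 and 27. In the ileum, S_wm against S_al (0) gave 1 without mouse 12's libraries, without the mouse 27 library or with the index, 2 without mice 18 and 27, 6 in DESeq2 and 0 to 2. S_wm against VSG (7) gave 3 with no filter, 21 in DESeq2, 1 on only the libraries compared and 1 to 14, and VSG against S_al (0) gave 5 in DESeq2 and 0 to 2. In the colon, S_wm against S_al (2) gave 1 with no filter or the replicate block, 0 on only the libraries compared and 0 to 3. S_wm against VSG (9) gave 4 with no filter or without mouse 12's libraries, 14 without the mouse 27 library, 15 in DESeq2 and 3 to 9. VSG against S_al (0) gave 2 without mice 18 and 27, 1 with the block and 0 to 2. With the index, ileum against duodenum fell from 5110 to 1713 and colon against duodenum from 8322 to 4236. Between regions, S_wm against S_al (0) gave 1 with the index and S_wm against VSG (0) gave 5 in DESeq2 and 0 to 1 leaving out a mouse.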
